A study of Mus musculus with 4 samples.

Results

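The dystrophin-associated protein complex of heart muscle was described through 9 genes, which were Lama2, Dag1, Dmd, Utrn, Sgca, Sgcb, Sgcd, Dtna and Sntb1. They were taken by gene symbol from the 22322 genes listed for every library, and all 9 had counts in each library and were among the 12499 genes that passed the filter on low counts. RNA was sequenced from cardiomyocytes of 2 sham-operated mice and 2 mice with transverse aortic constriction (TAC), in which the aorta is narrowed so that the left ventricle pumps against a raised pressure. Per the study's methods, male mice were operated at 2 months of age, heart function was examined 14 weeks later, and cells were released by Langendorff perfusion with part of the myocytes of 1 heart in each sample. The methods also call the mice 14 weeks old when cells were taken, so the interval since the operation is not certain. No genotype, strain, transgene or drug is given for either group in the sources used here, and the groups differ by the operation alone as far as the labels say. The libraries held 24237777 to 32118323 counts, and TAC 1 stood apart with 47.42% of its counts in the 13 protein-coding mitochondrial genes, against 39.84% to 40.85% in the other 3. The 10 cardiomyocyte markers together had 34267 to 38352 FPKM (fragments per kilobase of transcript, scaled to library size), whereas 8 fibroblast markers together had 29.6 to 90.9 FPKM.

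The complex ties the cytoskeleton of a muscle cell to the matrix around it. Laminin-211, with the alpha chain from Lama2, binds the sugar chains of alpha-dystroglycan outside the cell; beta-dystroglycan spans the membrane and holds dystrophin, which reaches cortical actin inside, while the sarcoglycans brace dystroglycan from the side and dystrobrevin and the syntrophins bring signalling proteins to dystrophin. Loss of dystrophin, of a sarcoglycan or of the laminin chain gives muscular dystrophy, in many forms with cardiomyopathy, and utrophin is a close relative of dystrophin that can take part of its place.

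The study followed miRNAs in these hearts and tested let-7f, miR-16, miR-200b, miR-92a and miR-24 on the RNA of Rbfox2, so the same seeds were looked up in the 9 genes. The mature mouse sequences from RefSeq are shown with the seed, bases 2 to 8, in capitals.
let-7f: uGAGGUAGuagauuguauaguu
miR-16: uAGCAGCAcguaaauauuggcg
miR-200b: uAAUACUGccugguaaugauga
miR-92a: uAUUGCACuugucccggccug
miR-24: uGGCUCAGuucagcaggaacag
No seed was shared between them. A match to bases 2 to 8, or to bases 2 to 7 followed by A, was found in the longest 3′UTR of 7 of the 9 genes, beside 64.1% of the 12420 tested genes with a 3′UTR in GENCODE M21 (GRCm38). The 3′UTRs of the 9 genes were longer, with a median of 2625 bases against 1426 bases, so the 2 shares are not at equal length. Dag1 and Sgcb each had 5 sites, Dmd had 4, Dtna had 3 and Utrn had 2, whereas Sgca and Sntb1 had 1 each and Sgcd and Lama2 had none. The sites of Dmd and Utrn are shown because the ratio of these relatives is among the results, together with the only site of Sgca, whose 3′UTR has 307 bases. Each line is the RNA strand in DNA letters, with the 6 bases that pair with bases 2 to 7 of the miRNA in capitals.
Dmd, let-7: tcatgctatttcTACCTCactttg
Dmd, miR-200b: ttataaccatcaAGTATTaaagtg
Dmd, miR-92a: taatgatgtttcTGCAATagaaca
Dmd, miR-24: cactttacccacTGAGCCatctca
Utrn, let-7: tgatcacctttcTACCTCagaacc
Utrn, miR-200b: ttcccgaccttcAGTATTgccctc
Sgca, miR-16: aaaaaaatacctGCTGCTtctgct
Dmd and Utrn both held a let-7 and a miR-200b site, and Dmd alone of the pair held sites for miR-92a and miR-24. A match of letters is no measured site, and the miRNAs themselves were not analysed here.

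In FPKM, which allows genes to be compared with each other, the level of the 9 genes spanned 226-fold between the highest and the lowest mean over the 4 libraries. Dag1 stood at a mean of 92.6 FPKM and Sgca at 87.1, and their ranges overlapped. Sgcb followed at 47.2 FPKM, Dtna at 23.8 and Dmd at 18.8, each clear of its neighbours in every library. Lama2, at 12.5 FPKM, overlapped Sgcd at 8.94, which in turn overlapped Utrn at 6.45. Sntb1 was lowest at 0.410 FPKM, with 46 to 64 counts per library, so its values rest on few counts.

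**Figure D1:**
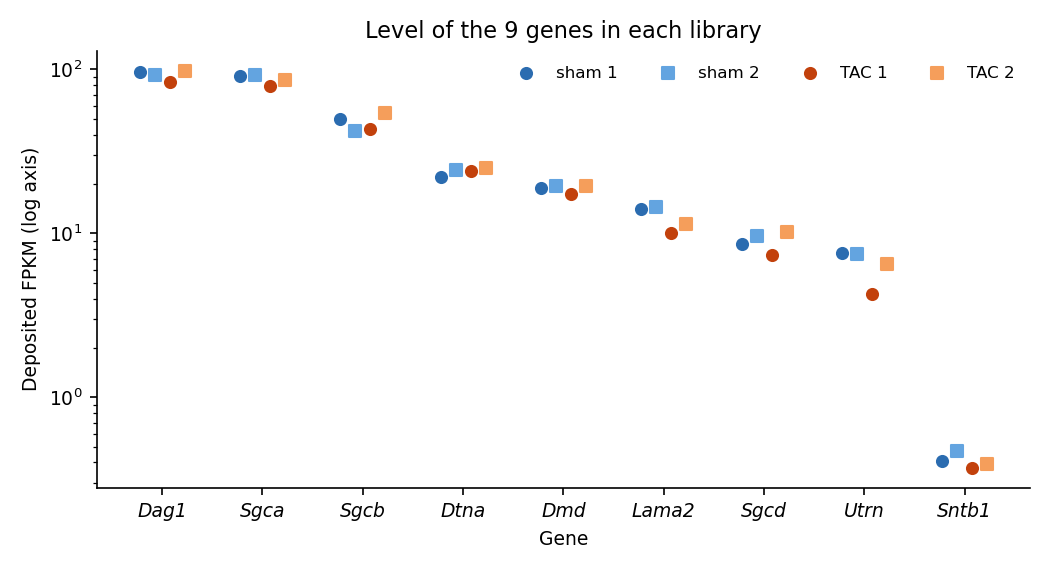
Deposited FPKM (log axis) of the 9 genes in each of the 4 libraries, ordered by mean level, with sham in blue and TAC in orange. Dag1 and Sgca sit together at the top, and Sntb1 lies below 0.5 FPKM in every library. The TAC points of Lama2, Utrn, Sgca and Sntb1 lie below both sham points.

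None of the 9 genes passed the test of TAC against sham (edgeR quasi-likelihood test, Benjamini-Hochberg adjusted p under 0.05 over all tested genes), beside 5.01% of all genes. An unadjusted p under 0.05 was found for 4 of the 9, beside 27.5% of all genes, with Lama2 and Utrn lower in TAC and Sgca and Sgcb higher. DESeq2 also called 0 of the 9, beside 921 of the 12499 tested genes. It gave 3 of the 9 an unadjusted p under 0.05, beside 2381 of the 12499. The log2 fold change was positive for 6 of the 9 (49.1% of all genes), and its median was 0.11 against -0.01 over all genes. In CPM (a count divided by its TMM-scaled library size, which sets libraries to a common level over most genes) the 2 groups did not overlap in 6 of the 9 genes (60.1% of all genes), with TAC above sham in 4 (29.8%) and below it in 2 (30.3%). Each of these counts lies within 2 genes of what the background share gives for 9 genes, and without TAC 1 none of the 9 passed either. With 2 libraries a group, an exact permutation test of a gene cannot go below p = 0.333, so each p rests on the spread pooled over genes. Scaling by total counts, as the study did, moved the median of all genes to -0.20, and under it the log2 fold changes of Dmd, Dag1, Sgca and Sgcd turned negative, those of Sgcb and Dtna stayed positive and those of Lama2, Utrn and Sntb1 were negative as before.

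**Figure D2:**
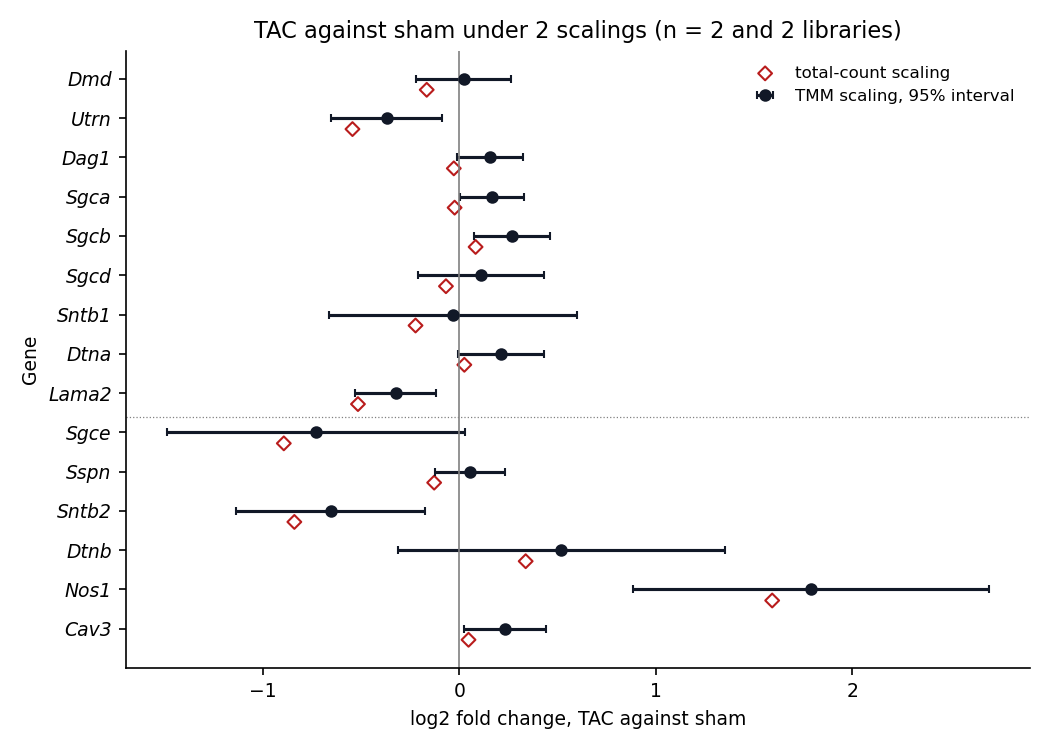
Log2 fold change of TAC against sham (x axis) for the 9 genes above the dotted line and for other members of the complex below it, with filled points and 95% intervals for TMM scaling and open diamonds for total counts (2 libraries per group). Utrn and Lama2 lie left of 0 under both scalings, whereas Dmd, Dag1, Sgca and Sgcd, and Sspn below the line, lie right of 0 with TMM and left of it with total counts.

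Lama2, which encodes the laminin alpha-2 chain on the matrix side of the complex (chromosome 10, 26980036 to 27619758, minus strand), was lower in both TAC libraries than in both sham libraries in either unit. It had 69.6 and 76.9 CPM in sham 1 and 2 and 61.3 and 55.6 CPM in TAC 1 and 2, so that the closest values of the groups, sham 1 and TAC 1, were further apart than the libraries of either group. The mean was 73.2 ± 5.20 CPM (SD, n = 2) in sham and 58.4 ± 4.02 CPM (SD, n = 2) in TAC. On the log2 scale the difference was -0.33 ± 0.09 (SE), with a 95% interval of -0.53 to -0.12 and an edgeR adjusted p of 0.0757. It was negative under each of the 12 alternatives, from -0.52 to -0.25, and passed the test under 4 of them. With crossed replicate pairing, chosen after seeing the data, it passed at an edgeR adjusted p of 0.0169, against 0.118 uncrossed. It also passed with total counts (edgeR adjusted p = 0.0406), totals that leave out the mitochondrial genes (0.0320) and no filter on low counts (0.0348). Without TAC 1 it was -0.40 (edgeR adjusted p = 0.106). An antisense gene that does not appear among the listed genes, Gm48084, covers 631 bases of Lama2 exons (3.86%), and the sources used here do not say whether counting used strand.

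Dag1, the gene of both dystroglycan subunits (chromosome 9, 108204634 to 108263958, minus strand), had the highest mean level of the 9 genes. Its CPM was 468 and 471 in sham 1 and 2 and 516 and 531 in TAC 1 and 2. The TAC libraries were above the sham libraries in CPM by more than the spread within either pair, but in FPKM (96.2, 92.5, 83.3 and 98.3, in the same order) the groups overlapped. The log2 fold change was 0.16 ± 0.07, with a 95% interval of -0.01 to 0.33 and an edgeR adjusted p of 0.207, and it was -0.03 with total counts.

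Dmd, which encodes dystrophin (chromosome X, 82948870 to 85206141, plus strand), gave no difference beyond the spread between libraries. It had 109 and 133 CPM in sham 1 and 2 and 128 and 118 CPM in TAC 1 and 2, so both TAC values lay between the sham values. Its log2 fold change was 0.02 ± 0.10 (95% interval -0.22 to 0.26, edgeR adjusted p = 0.913), and it ran from -0.17 with total counts to 0.17 without sham 2. The interval covers a fold of 0.859 to 1.20. Dmd spans 2257.3 kb, against a median of 25.2 kb over tested genes, and is read from several start sites. The length implied by its counts, FPKM and library totals was 6162 to 7100 bases, against 14910 bases for its longest annotated transcript, whereas the same calculation for Sgcb gave 3786 bases, the length of its annotated transcript. The deposited FPKM of Dmd thus does not refer to its longest transcript alone. The 250 bases before 2 of its starts in the RefSeq promoter table (GRCm38.p6, plus strand) are shown, with motif matches in capitals.
Dmd, upstream start, chrX:82948620-82948869: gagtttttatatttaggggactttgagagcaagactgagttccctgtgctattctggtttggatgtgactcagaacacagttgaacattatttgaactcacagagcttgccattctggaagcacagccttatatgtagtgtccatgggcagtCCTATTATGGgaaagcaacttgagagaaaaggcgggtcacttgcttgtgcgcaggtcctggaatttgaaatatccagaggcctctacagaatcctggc
Dmd, internal start, chrX:85048045-85048294: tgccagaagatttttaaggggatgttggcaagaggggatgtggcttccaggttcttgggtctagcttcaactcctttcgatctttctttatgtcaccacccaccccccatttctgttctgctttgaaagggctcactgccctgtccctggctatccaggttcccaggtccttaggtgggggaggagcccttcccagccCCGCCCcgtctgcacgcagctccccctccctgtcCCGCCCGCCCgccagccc
The upstream window holds a match to the CArG box, the binding motif of serum response factor, which begins 98 bases before the start. The internal window holds 3 GC boxes (GGGCGG on either strand) beginning 52, 18 and 14 bases before the start, the last 2 overlapping each other. A CArG match was found in 1.6% of 32851 promoter windows and a GC box in 35.7%. The 7 genes of the complex in that table had 9 windows. Of these windows, 2 (1 each of Dmd and Lama2) had a CArG match and 6, from 5 genes, had a GC box. The 6 include 2 windows of Dag1 that overlap and hold the same 3 GC boxes. None of the 9 windows held the letters of a GATA site (TGATAA, in 9.1% of windows), an N-box (TTCCGG, 14.9%) or an E-box (CAGCTG, 16.3%) or a MEF2 match (0.6%). The letters CATTCC were found in Sgcd alone, against 14.7% of windows. The counts do not separate transcripts from different starts.

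Utrn, the gene of utrophin (chromosome 10, 12382188 to 12869365, minus strand), was lower in both TAC libraries, more so in TAC 1. Its CPM was 59.3 and 64.4 in sham 1 and 2 and 42.0 and 53.7 in TAC 1 and 2. The sham libraries were close to each other and the TAC libraries were not, with means of 61.9 ± 3.61 CPM (SD, n = 2) in sham and 47.9 ± 8.28 CPM (SD, n = 2) in TAC. The log2 fold change was -0.37 ± 0.12 (95% interval -0.65 to -0.09, edgeR adjusted p = 0.107). Without TAC 1 it was -0.20 (edgeR adjusted p = 0.359), and without TAC 2 it was -0.55 and passed the test (0.0145). It was negative under each of the 12 alternatives. Otherwise it passed only with no filter on low counts (edgeR adjusted p = 0.0328) and with crossed replicate pairing, chosen after seeing the data (0.0495).

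The ratio of Utrn to Dmd within a library does not depend on how libraries are scaled. In FPKM it was 0.402 and 0.386 in sham 1 and 2 and 0.244 and 0.335 in TAC 1 and 2, a mean difference of -0.46 on the log2 scale, TAC minus sham. The groups did not overlap in FPKM or in CPM, where the difference was -0.41. The log2 ratios of sham 2 and TAC 2 were -1.37 and -1.58 in FPKM and -1.04 and -1.14 in CPM. In both units these libraries lay closer to each other than TAC 2 did to TAC 1 (-2.04 in FPKM, -1.60 in CPM). As a share of the summed FPKM of both genes, a measure chosen after their values were seen, Utrn took 28.7% and 27.8% in sham and 19.6% and 25.1% in TAC. The ratio of Dag1 to Dmd differed by -0.00 in FPKM and by 0.13 in CPM, and its groups overlapped in both units.

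Of the sarcoglycans, Sgcb (chromosome 5, 73632749 to 73647790, minus strand), which encodes beta-sarcoglycan, had the largest positive log2 fold change of the 9 genes with TMM scaling. Its CPM was 171 and 154 in sham 1 and 2 and 188 and 202 in TAC 1 and 2, with TAC above sham, whereas in FPKM (49.5, 42.2, 43.2 and 53.9) TAC 1 lay between the sham libraries. That fold change was 0.27 ± 0.08 (95% interval 0.07 to 0.46, edgeR adjusted p = 0.0966), and it stayed positive under each of the 12 alternatives, from 0.08 to 0.35. It passed the test only with crossed replicate pairing, a setting chosen after seeing the data (edgeR adjusted p = 0.0283). The adjusted p ran up to 0.787 over the edgeR, DESeq2 and limma fits. Sgca (chromosome 11, 94962791 to 94976327, minus strand), which encodes alpha-sarcoglycan, had 106 and 103 CPM in sham 1 and 2 and 118 and 115 CPM in TAC 1 and 2. The TAC libraries were above sham in CPM, but in FPKM the order was the opposite, with 90.9 and 92.2 in sham and 79.3 and 85.9 in TAC. Its log2 fold change was 0.16 ± 0.07 (95% interval 0.00 to 0.33, edgeR adjusted p = 0.178) with TMM scaling and -0.15 (limma adjusted p = 0.468) on log2(FPKM + 0.1). The length implied by the deposited values of Sgca differed 1.17-fold between libraries, from 1156 to 1354 bases. The 2 units also differ in scaling, and with total counts the log2 fold change of Sgca was -0.02. They thus do not carry the same comparison for this gene, and the part of length and of scaling was not tested. Sgcd (chromosome 11, 46896253 to 47988969, minus strand), the gene of delta-sarcoglycan, was far lower, with 12.8 and 14.9 CPM in sham 1 and 2 and 13.6 and 16.3 CPM in TAC 1 and 2. Its groups overlapped and its log2 fold change was 0.11 ± 0.14 (95% interval -0.21 to 0.43, edgeR adjusted p = 0.639).

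Ratios within a library compare the sarcoglycans with each other without regard to scaling. Sgcd stood at 0.0923 to 0.118 of the FPKM of Sgca and was the lowest of the 3 in each library. The log2 ratio of Sgcb to Sgca differed by 0.23 between TAC and sham in FPKM and by 0.10 in CPM, where the groups overlapped, and that of Sgcd to Sgca by 0.07 in FPKM and -0.06 in CPM.

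**Figure D3:**
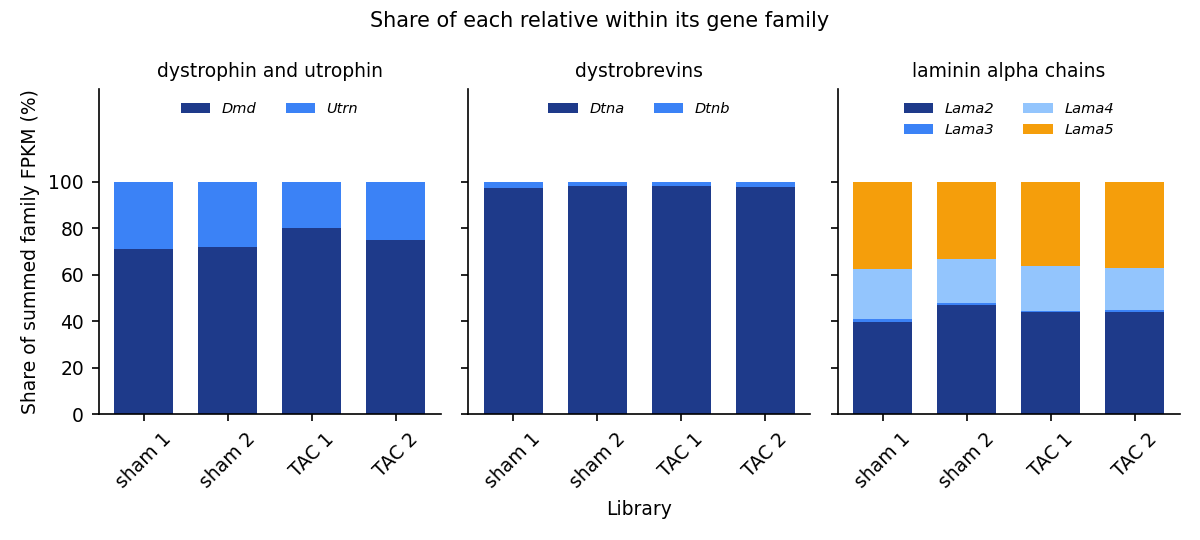
Share (%) of each relative in the summed FPKM of its gene family, 1 bar per library, for dystrophin and utrophin, the dystrobrevins and the laminin alpha chains. The Utrn share is 19.6% and 25.1% in the TAC bars against 28.7% and 27.8% in the sham bars, and Dtna fills over 97% of every dystrobrevin bar.

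Dtna, which encodes alpha-dystrobrevin (chromosome 18, 23415135 to 23659715, plus strand), had 52.1 and 60.5 CPM in sham 1 and 2 and 66.9 and 63.6 CPM in TAC 1 and 2. TAC was above sham, and sham 1 lay further from sham 2 than sham 2 from TAC 2. Dtna had a log2 fold change of 0.21 ± 0.09 (95% interval -0.00 to 0.43, edgeR adjusted p = 0.189), positive under each of the 12 alternatives, from 0.03 to 0.33. Its relative Dtnb was rare, and Dtna took 97.5% to 98.4% of the FPKM of the pair in every library. The log2 ratio of Dtnb to Dtna differed by -0.01 between groups in FPKM and 0.30 in CPM, with overlap in both. The antisense gene Gm47898, not among the listed genes, covers 90 bases of Dtna exons (0.53%).

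Sntb1 (chromosome 15, 55636388 to 55906949, minus strand) encodes beta-1-syntrophin, an adaptor that binds dystrophin and signalling enzymes. It had 1.83 and 2.22 CPM in sham 1 and 2 and 2.08 and 1.88 CPM in TAC 1 and 2, and its groups overlapped in CPM. In FPKM (0.41 and 0.47 in sham, 0.37 and 0.39 in TAC) both TAC values lay below both sham values. The log2 fold change was -0.03 ± 0.27, and the 95% interval of -0.66 to 0.60 does not exclude a 1.5-fold change in either direction.

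Other members of the complex were taken as a list of 10 genes, of which 6 could be tested, and 1 rose in TAC, beside 2.58% of all genes called higher. Nos1, the gene of neuronal nitric oxide synthase, which syntrophin anchors at the membrane, rose from 15 and 25 counts in sham to 73 and 49 in TAC, or by 1.79 ± 0.39 on the log2 scale (edgeR adjusted p = 0.0467). It no longer passed with total counts (1.59, 0.0561) or totals without mitochondrial genes (1.69, 0.0554), without sham 1 it was 1.41 (0.104) and without TAC 1 it was 1.58 (0.176), all edgeR adjusted p. Sntb2, beta-2-syntrophin, stood at -0.66 on the log2 scale (edgeR adjusted p = 0.0997), with -0.40 (0.448) without sham 1, and passed the test without sham 2 (-0.86, 0.0456) and with no filter on low counts (0.0311). Sgce, the epsilon-sarcoglycan found outside striated muscle as well, had -0.73 (edgeR adjusted p = 0.195), which became -1.32 (0.0239) without TAC 2 and -0.30 (0.593) without TAC 1. Sspn, sarcospan, stood at 0.05 (0.680) and at -0.13 with total counts, Cav3, the caveolin of muscle, at 0.23 (0.147), and Dtnb at 0.52 (0.375). Sgcz and Sntg1 had 0 counts in all libraries, and Sntg2 and Drp2 did not pass the filter.

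The genes around the complex were counted in 4 further lists, and over all 5 lists 4 of 57 tested genes rose and 6 fell, beside 2.58% and 2.43% of all genes. Of 16 tested enzymes that build the sugar chains of dystroglycan, 1 rose, B3galnt2 by 0.53 (edgeR adjusted p = 0.0220). It lost the call with total counts (0.35, edgeR adjusted p = 0.161) and in both limma fits on FPKM, where it was 0.18 and 0.17 (limma adjusted p = 0.526 and 0.522). With TMM scaling 13 of the 16 had a positive log2 fold change, with a median of 0.22, whereas in FPKM the log2 ratio of TAC to sham was positive for 9 of them, with a median of 0.03. Of 12 tested matrix genes, ligands of dystroglycan and their matrix partners, none rose and 3 fell. These were Agrn, which encodes agrin (fell by 0.49, edgeR adjusted p = 0.0467), Egflam, pikachurin (fell by 1.19, 0.0122) and Nid1, nidogen-1 (fell by 0.68, 0.0477), and all 12 had negative log2 fold changes with TMM scaling, with a median of -0.43, while 1 of them was positive in FPKM. The Agrn call was lost without sham 2 (0.142) or TAC 1 (0.0997), and that of Nid1 without sham 1 (0.0698) or TAC 1 (0.120), and both were lost in the limma fits on FPKM (limma adjusted p = 0.0599 and 0.0543 for Agrn, 0.0577 and 0.0509 for Nid1). Of 11 tested cytoskeletal partners, Flnc, which encodes filamin C, a sarcoglycan-binding actin crosslinker, rose from 418 and 441 CPM to 754 and 776 CPM, by 0.83 ± 0.08 (edgeR adjusted p = 0.00445), and Actg1, cytoplasmic gamma-actin, fell by 0.82 (0.0243). Of 12 tested membrane repair and caveolar genes, Cavin4 rose by 0.48 (edgeR adjusted p = 0.0248), while Ahnak fell by 0.79 (0.00937) and Ano5 fell by 0.87 (0.0312). Cavin4 lost the call with total counts (0.29), without TAC 1 (edgeR adjusted p = 0.0694) and in both limma fits (0.29 and 0.28, limma adjusted p = 0.177 and 0.173), and Ano5 without sham 2 (0.0592). Flnc, Actg1, Ahnak and Egflam passed under each of the 12 alternatives, and none of the 10 called genes changed sign under any alternative in which it was tested.

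Markers of cells other than cardiomyocytes had negative log2 fold changes in TAC, most without passing the test, as did Lama2 and Utrn, which such cells also express. In these bulk samples fewer cells of a type and less RNA per cell cannot be told apart. All 8 fibroblast markers had negative log2 fold changes (2 called), where 2.43% of all genes were called lower. The summed FPKM of these markers was 90.9 and 63.01 in sham and 29.6 and 48.1 in TAC, with none at 0. All 8 endothelial markers were negative as well (2 called), with sums of 163 and 125 in sham and 64.2 and 101 in TAC, as were all 8 mural cell markers (1 called), with 110 and 125 against 38.5 and 77.5. The 8 macrophage markers, also all negative (0 called), summed to 81.4 and 40.3 in sham and 17.8 and 41.4 in TAC, where the groups overlapped. Those of Schwann cells were near 0, with sums of 0.68 to 1.57 FPKM over 4 markers.

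In FPKM, TAC 1 was the lowest library for the fibroblast, endothelial, mural and macrophage lists. It was also lowest in FPKM for Lama2, Utrn, Dmd, Dag1, Sgca, Sgcd and Sntb1. In CPM, TAC 1 was lowest for Utrn and TAC 2 for Lama2, whereas a sham library was lowest for Dmd, Dag1, Sgca, Sgcd and Sntb1. Relative to the sham mean, on the log2 scale, Utrn stood at -0.82 in TAC 1 and -0.22 in TAC 2, Lama2 at -0.51 and -0.32, and the fibroblast sum at -1.38 and -0.68. Dmd stood at -0.13 and 0.02, and the cardiomyocyte sum at -0.11 and 0.05. The single cardiomyocyte markers were not all flat. Of the 10, with TMM scaling, 4 had negative and 6 positive log2 fold changes, from -0.38 to 0.41, and 0 were called. Between the sham libraries the fibroblast sum differed 1.44-fold, the endothelial sum 1.31-fold, the mural sum 1.14-fold and the macrophage sum 2.02-fold. Lama2 differed 1.02-fold and Utrn 1.01-fold between the same libraries. The part of these cells in the values of Lama2 and Utrn was not tested. Of the laminin alpha chains, Lama2 stood at 39.8% to 47.1%, Lama5 at 33.0% to 37.6% and Lama4 at 17.9% to 21.5% of the family's FPKM, with overlapping groups for each, while the scarce Lama3 took 1.07% and 0.913% in sham and 0.745% and 0.890% in TAC, without overlap. The log2 ratio of Lama4 to Lama2 differed by -0.15 in FPKM and -0.05 in CPM.

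**Figure D4:**
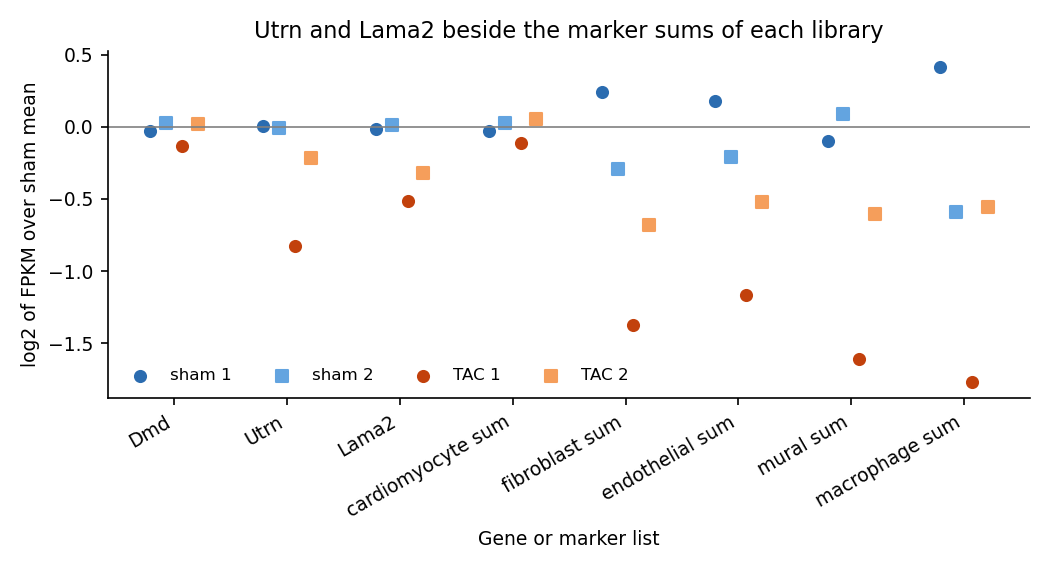
Log2 of FPKM over the sham mean for Dmd, Utrn, Lama2 and the summed markers of 5 cell types, 1 point per library, with sham in blue and TAC in orange. TAC 1 is lowest for Utrn, Lama2 and each non-myocyte sum, while Dmd and the cardiomyocyte sum lie between -0.13 and 0.05 in the TAC libraries.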

How the data were processed

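RNA was sequenced from mouse cardiomyocytes (2 sham, 2 TAC), with the group and number of each library read from its title. The authors deposited, for every gene and library, an expected count, estimated from mapped fragments, and an FPKM, which they made by scaling to length and library size. The submitters' processing notes name Bowtie2 2.2.8, StringTie 1.3.1 and the build mm10. The sources used here do not give how counts were made, whether strand was used, or the length and total behind the FPKM. Between 1432 and 1519 genes per library had counts that were not whole, and counts were rounded before testing.

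The main test was that of edgeR 4.0.16 in R 4.3.3 (filterByExpr, TMM factors of 1.1, 1.04, 0.868 and 1.009 for sham 1, sham 2, TAC 1 and TAC 2, glmQLFit and glmQLFTest without a block), with Benjamini-Hochberg adjustment over 12499 genes. Replicates varied with a common biological coefficient of variation of 10.5%. The SE was the log2 fold change divided by the root of F, and 95% intervals used the t quantile at the degrees of freedom of the test. A chi-square test gave 9.19 per degree of freedom between the sham libraries and 31.3 between the TAC libraries, above sampling noise, so each was kept as a sample. Replicates are separate samples per the labels. Alternatives were total counts, totals without 13 mitochondrial genes, DESeq2 1.42.0, no filter, a replicate block, each library left out, and limma 3.58.1 on log2(FPKM + 0.1) or log2(FPKM + 1) for genes with a mean FPKM over 0.5, which left out Sntb1. A replicate block with the pairing crossed was added after seeing the data and is counted with these alternatives. The steps were tested on simulated data. Positions and 3′UTRs came from GENCODE M21, and miRNA and promoter sequences from RefSeq.

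The 9 genes and all lists were chosen with earlier results of these data known. The rule named all 9 genes, all other complex genes, and the called genes of the other lists. Some genes of the lists are not reported here.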

Additional observations from a re-analysis of the deposited data

How the results depend on the processing

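Of the single-gene values recomputed under the alternatives, 249 had the same call, or lack of one, as in the main test. A further 12 newly passed the threshold, 21 no longer passed it and none reversed as a called value. The 249 include uncalled values whose sign changed, among them Dmd, Dag1, Sgca, Sgcd and Sspn with total counts. The number of the 9 genes called was 0 with DESeq2, limma and the replicate block. It was 1 (Lama2) with total counts, beside 528 of 12499 genes, and with totals without mitochondrial genes, beside 638 of 12499. With no filter it was 2 (Lama2 and Utrn), beside 1676 of 16015 genes. Over all genes, 626 were called (322 higher, 304 lower), against 1676 with no filter (707 and 969), 370 with limma on log2(FPKM + 0.1) (88 higher), and 301 to 1336 with a library left out (183 to 560 higher, 118 to 776 lower), the lowest without TAC 1 and the highest without TAC 2. The higher calls were 51.4% of calls with TMM, 19.9% with total counts (105 genes) and 29.5% with totals without mitochondrial genes (188 genes), limma on log2(FPKM + 1) gave 92 higher, and DESeq2 gave 477 lower. Of the other pathway genes, 4 rose and 6 fell, against 1 higher with total counts or with either limma fit, 11 lower with no filter, and 2 to 5 higher and 4 to 13 lower with a library left out. The ratio of Dag1 to Dmd moved to 0.13 in CPM. The causes of these shifts were not tested. The replicate numbers do not pair the samples by their labels, and same-numbered libraries deviated against each other (correlation -0.271). With the replicate block 566 genes were called, 0 of the 9 genes, and 3 other pathway genes higher, with the Nos1 call lost (edgeR adjusted p = 0.0546). With the pairing crossed, chosen after seeing the data, 2131 of 12499 genes were called (968 higher, 1163 lower). Among these were 3 of the 9 genes, and 8 other pathway genes higher and 12 lower. Sntb1 had the fewest counts of the 9 genes, with 46 to 64 per library.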
